A study of Rattus norvegicus with 9 samples.

Results

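The genes described here encode the leukocyte integrin Mac-1 (Itgam, Itgb2), the phagocyte NADPH oxidase (Cybb, Cyba, Ncf1, Ncf4, Rac2), and a pair of genes linked to neutrophils and their extracellular traps (S100a9, Padi4). They were chosen by name, with earlier results of these data known. All 9 were among the 12609 gene symbols of the table, and the table's rows of a symbol were summed. Of the 9, 8 reached the level needed for testing, at least 1 TPM (a transcript level scaled for length, summing to 1000000 in each library) in at least 3 libraries, as did 10180 symbols in all. Padi4 did not. Ncf4 reached that level through the IR and IR+NMN libraries and stayed under 1 TPM in every Sham library. Cybb reached it in only 3 libraries, Sham 2, Sham 3 and IR+NMN 1.

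RNA sequencing measured expression in 9 libraries of rat brain, 3 in each of 3 groups. Sham rats were operated on without middle cerebral artery occlusion (MCAO), and their treatment label reads PBS. IR rats had MCAO, a model of ischemic stroke, with the same treatment label, and the series' title adds reperfusion. IR+NMN rats had MCAO and an injection of 100 mg/kg nicotinamide mononucleotide (NMN), a precursor of NAD, in saline. Surgery was thus common to all 3 groups. The sources used here give no strain, sex, age, brain region or times. No label ties a library to its own animal, and the p-values therefore rest on spread between libraries that may be technical. The 10 brain tissue markers examined, from neurons, oligodendrocytes and astrocytes, were all above the testing level. They summed to between 7759 and 16388 TPM per library. IR+NMN 2 stood apart from its group, with a root mean square log2 difference over all tested genes of 0.580 from its own group and 0.546 from Sham. For IR 1 these were 0.495 and 0.527. The other 4 IR and IR+NMN libraries differed by 0.380 to 0.544 from their own group and by 0.602 to 0.777 from Sham. The calls of each comparison are also given without IR 1 and IR+NMN 2. These 2 were picked from the data as the IR and IR+NMN libraries nearest to Sham, so calls without them are a description and no check. Depth cannot be read from TPM, and no counting interval is given.

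Phagocytes of the brain are mainly its resident microglia, joined after injury by monocytes and neutrophils from the blood. Mac-1 is a pair of one alpha and one beta chain that binds ICAM-1 on vessel walls and opsonized particles, and the beta chain is shared with other leukocyte integrins. The phagocyte oxidase makes superoxide. Its membrane core joins the catalytic chain encoded by Cybb to the chain encoded by Cyba, and cytosolic proteins, among them those of Ncf1 and Ncf4, and a Rac GTPase move to this core on activation. In neutrophils, oxidase activity and the histone-modifying enzyme PADI4 are known steps on the way to extracellular traps, the process named in the series' title.

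RefSeq promoter windows of the rat assembly GRCr8, running from 250 bases before to 50 bases after the gene's start, were available for 5 of the 9 genes. Windows of 3 are shown because Itgam and Cyba were higher in IR+NMN and Cybb, the partner chain of Cyba, did not pass the test. Capitals mark GAGGAA, a core sequence of sites of the myeloid transcription factor PU.1, or its reverse complement TTCCTC.
Itgam, chr1:192089342-192089641, plus strand: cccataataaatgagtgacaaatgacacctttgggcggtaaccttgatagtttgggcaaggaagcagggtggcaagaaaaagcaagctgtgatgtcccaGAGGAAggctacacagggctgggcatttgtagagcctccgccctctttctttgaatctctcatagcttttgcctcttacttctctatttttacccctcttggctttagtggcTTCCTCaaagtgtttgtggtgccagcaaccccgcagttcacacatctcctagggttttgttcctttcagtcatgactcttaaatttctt
Cyba, chr19:67404165-67404464, minus strand: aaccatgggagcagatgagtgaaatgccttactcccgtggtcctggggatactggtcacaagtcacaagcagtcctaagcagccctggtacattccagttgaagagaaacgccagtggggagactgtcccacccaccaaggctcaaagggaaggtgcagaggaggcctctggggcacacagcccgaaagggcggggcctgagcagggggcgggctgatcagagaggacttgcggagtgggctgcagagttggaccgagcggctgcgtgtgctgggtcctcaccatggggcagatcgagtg
Cybb, chrX:16065016-16065315, minus strand: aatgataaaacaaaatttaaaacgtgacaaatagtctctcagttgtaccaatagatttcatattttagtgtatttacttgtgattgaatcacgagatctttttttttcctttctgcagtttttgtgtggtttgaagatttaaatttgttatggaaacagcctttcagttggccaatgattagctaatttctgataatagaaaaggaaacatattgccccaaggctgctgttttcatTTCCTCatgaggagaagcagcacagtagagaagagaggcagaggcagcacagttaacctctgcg
The Itgam window held 1 match on each strand, and the Cybb window held 1, on the reverse strand. The S100a9 window also held 1, while those of Cyba and Ncf1 held 0, so the letters occurred in genes that passed the test and in genes that did not. The same letters, on either strand, were in 9239 of 33469 rat promoter windows of this length, or 27.6%. GC content was 61% in the Cyba window, 46.3% in that of Itgam and 35.7% in that of Cybb.

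The 5 genes Itgam, Itgb2, Rac2, Ncf4 and Cyba were higher in IR+NMN than in IR, by 1.196 to 2.18 on the log2 scale of TPM + 1. For each of them all 3 IR+NMN libraries lay above all 6 other libraries. Over all genes 2.30% were called higher in IR+NMN than in IR. The IR+NMN libraries lay wholly above IR for 13.7% of all genes and wholly above Sham for 1323 of 10180. The share above both at once was not counted. None of the 8 tested genes passed the test between IR and Sham, where 6.39% of all genes did. Ncf1, Cybb and S100a9 passed in no comparison, and Padi4 was at or near 0 throughout. TPM in a tissue cannot tell more cells of a type from more RNA per cell.

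**Figure D1:**
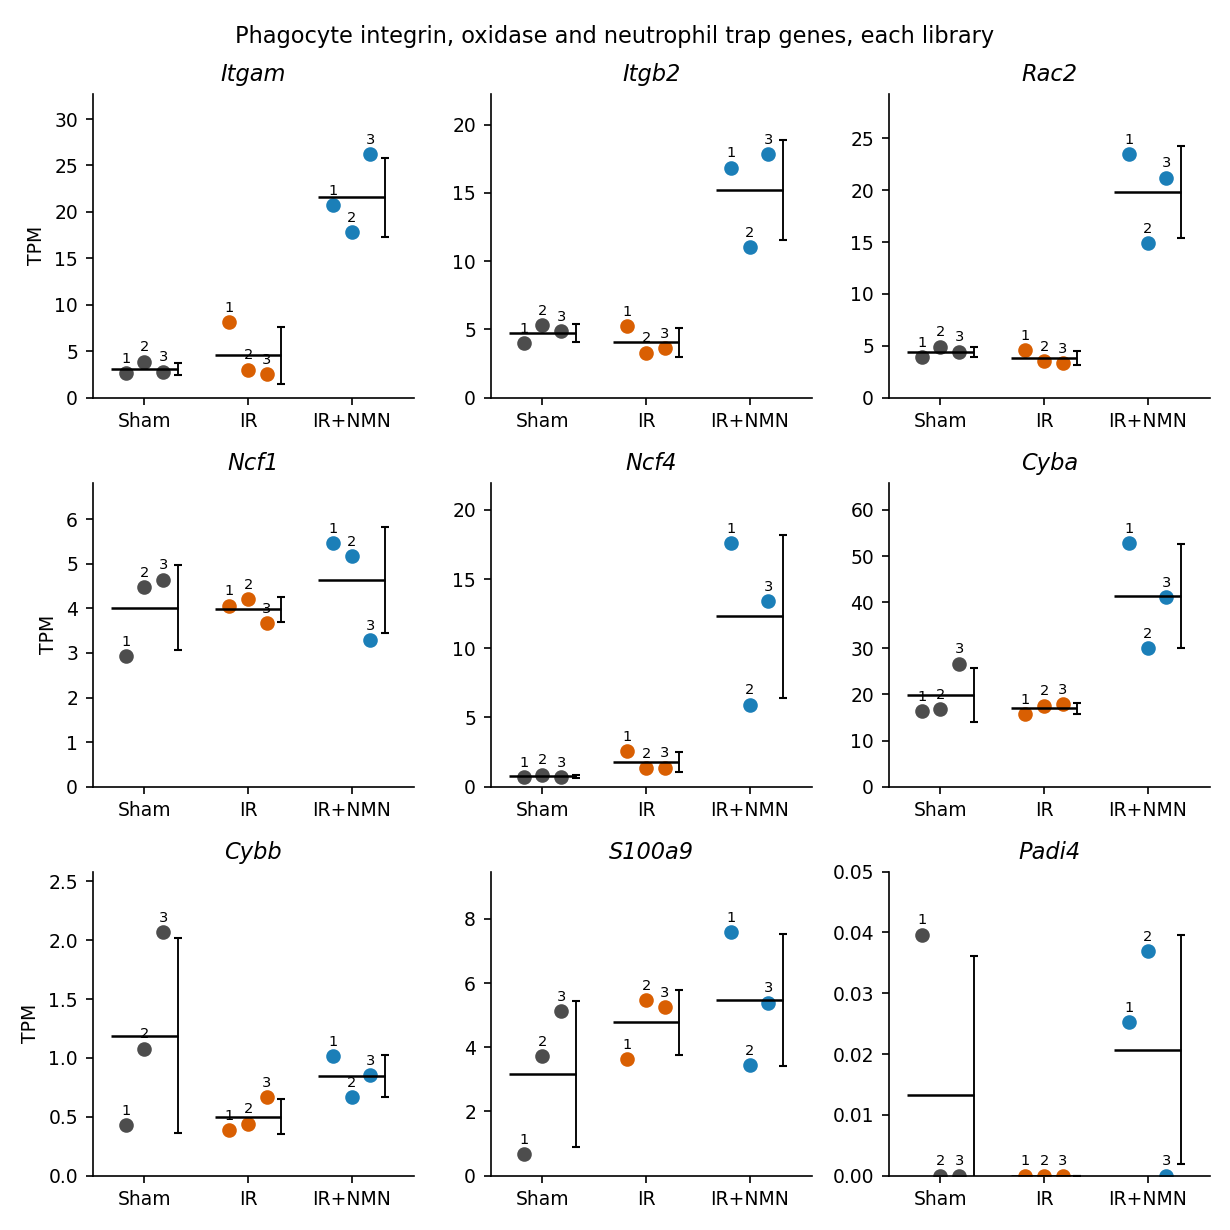
TPM (vertical axes, linear from 0, a scale per gene) of the 9 genes in each library, numbered by replicate, with the group mean (line) and SD (bar, clipped at 0). Itgam, Itgb2, Rac2, Ncf4 and Cyba show the 3 IR+NMN libraries above all others, and IR+NMN 2 is the lowest of the 3 in each of them.

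Itgam, the alpha chain of Mac-1, was at 2.61, 3.89 and 2.78 TPM in Sham 1 to 3. It was at 8.10, 3.02 and 2.52 TPM in IR 1 to 3 and at 20.7, 17.8 and 26.2 TPM in IR+NMN 1 to 3. IR 1 stood above every Sham library, whereas IR 2 and IR 3 lay in or just below the Sham range. The IR mean was 4.55 ± 3.09 TPM, against 21.6 ± 4.27 TPM for IR+NMN (SD, n = 3). The log2 difference was 2.14 (SE 0.34, limma adjusted p = 0.0216).

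Itgb2, the beta chain that pairs with Itgam, was at 4.005, 5.30 and 4.85 TPM in Sham. It was at 5.23, 3.29 and 3.62 TPM in IR and at 16.8, 11.02 and 17.8 TPM in IR+NMN. Sham and IR overlapped, and IR+NMN was 1.68 higher than IR on the log2 scale (SE 0.21, limma adjusted p = 0.0181). The Itgam value was 0.572 to 0.733 times that of Itgb2 in the Sham libraries, 0.696 to 1.55 times in IR and 1.23 to 1.61 times in IR+NMN, both being levels per transcript length. The 3 Itgb2 rows of the table were all in use, and the row with the most TPM was the same in all 9 libraries.

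Rac2, the Rac GTPase largely restricted to blood cells, was at 3.89, 4.90 and 4.43 TPM in Sham and at 4.56, 3.51 and 3.33 TPM in IR. In IR+NMN it was at 23.4, 14.9 and 21.2 TPM. Its difference from IR, 2.11 (SE 0.19, limma adjusted p = 0.00821), had the smallest p of all 10180 genes in that comparison. Its relative Rac1, which nearly all cells express, had group means of 367 to 494 TPM. Rac2 reached 0.00758 to 0.0110 of the Rac1 level in the Sham and IR libraries and 0.0297 to 0.0557 of it in IR+NMN.

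Rac2 had 2 rows in the table, and in each library nearly all of its TPM stood in one of them. Row 1 held nearly all in Sham 1, IR 1 and IR 2, and row 2 held at least 99.6% in the other 6 libraries, so that only the sum of the rows can be compared. When just the row with the highest mean was used, the call against Sham was lost (2.69, limma adjusted p = 0.0520). S100a9 also shifted between its 2 rows. Row 1 held 100% in IR+NMN 2 and 0 in Sham 2.

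**Figure D2:**
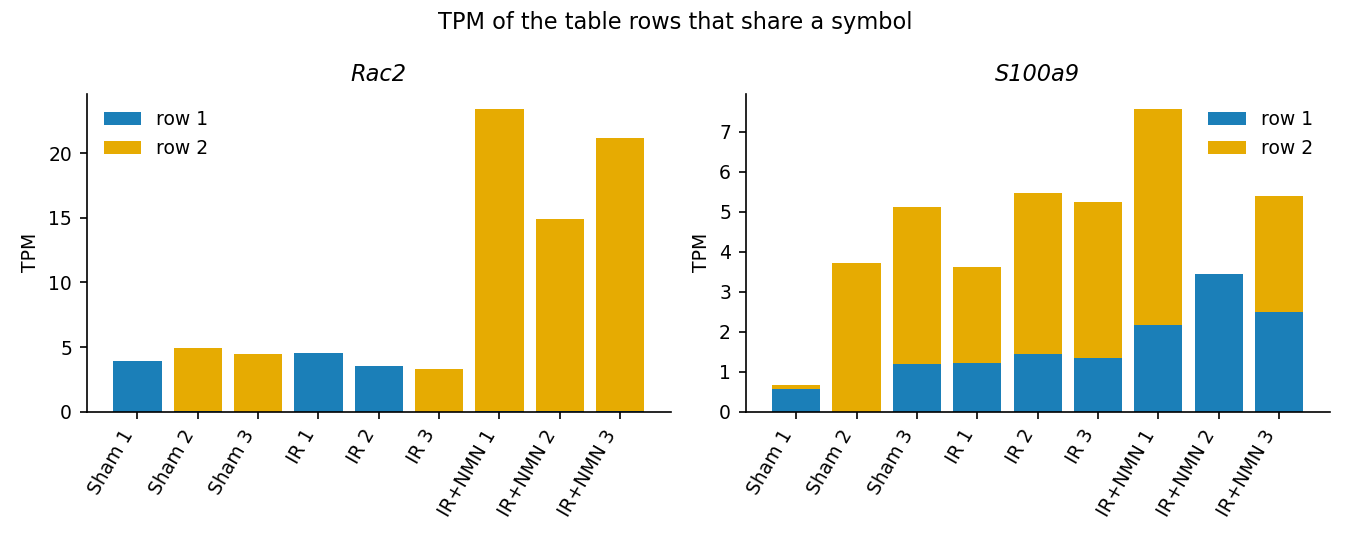
Stacked bars of TPM (linear axes from 0) for the 2 table rows of Rac2 and of S100a9 in each library. The row that carries Rac2 changes between libraries of the same group, while the summed bars of the 3 IR+NMN libraries, from 14.9 to 23.4 TPM, stand above all others.

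Ncf4 encodes p40phox, the cytosolic oxidase subunit that binds a phosphoinositide of phagosome membranes. It was at 0.667, 0.860 and 0.697 TPM in Sham, at 2.58, 1.34 and 1.38 TPM in IR, and at 17.6, 5.91 and 13.4 TPM in IR+NMN. The groups did not overlap in any pair, with Sham lowest and IR+NMN highest. IR+NMN was 2.18 higher than IR (SE 0.34, limma adjusted p = 0.0216). IR was at 1.77 ± 0.704 TPM against 0.741 ± 0.104 in Sham, a difference that did not pass (0.64, SE 0.34, limma adjusted p = 0.240).

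Cyba, the smaller chain of the membrane core, had the highest level of the 9 genes in each group. It was at 16.4, 16.8 and 26.6 TPM in Sham and at 15.7, 17.6 and 17.9 TPM in IR, which overlapped. In IR+NMN it was at 52.7, 30.1 and 41.1 TPM, and the lowest of these lay just above Sham 3. IR+NMN was 1.196 higher than IR (SE 0.23, limma adjusted p = 0.0368), the smallest of the 5 differences that passed.

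Cybb, the catalytic chain and partner of Cyba, was at 0.427, 1.08 and 2.07 TPM in Sham. It was at 0.389, 0.441 and 0.668 TPM in IR and at 1.02, 0.666 and 0.855 TPM in IR+NMN. The highest library was Sham 3, and the 3 groups overlapped. The difference between IR+NMN and IR was 0.30 (95% interval -0.28 to 0.88, limma adjusted p = 0.779). Cyba exceeded Cybb 12.9 to 38.4 times in Sham, 26.8 to 40.4 times in IR and 45.1 to 51.9 times in IR+NMN.

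Ncf1, the organizer subunit p47phox whose phosphorylation starts assembly, was at 2.92, 4.48 and 4.64 TPM in Sham and at 4.06, 4.21 and 3.67 TPM in IR. In IR+NMN it was at 5.46, 5.16 and 3.29 TPM, so all groups overlapped. The difference between IR+NMN and IR was 0.16 (95% interval -0.31 to 0.62, limma adjusted p = 0.911). Ncf1 had 9 rows in the table, of which 7 were listed at 0 in every library. The Ncf4 level was 0.150 to 0.636 times that of Ncf1 in the Sham and IR libraries and 1.14 to 4.08 times in IR+NMN.

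S100a9, a calcium-binding protein abundant in neutrophils and also made by monocytes, was at 0.661, 3.72 and 5.13 TPM in Sham. It was at 3.62, 5.47 and 5.24 TPM in IR and at 7.58, 3.45 and 5.38 TPM in IR+NMN. Sham 1 was the lowest library and IR+NMN 1 the highest, with overlap of all groups between them. The difference was 0.65 for IR against Sham (95% interval -0.37 to 1.68, limma adjusted p = 0.359). It was 0.13 for IR+NMN against IR (95% interval -0.90 to 1.15, limma adjusted p = 0.990) and 0.78 for IR+NMN against Sham (95% interval -0.24 to 1.81, limma adjusted p = 0.277).

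Padi4, which converts histone arginines to citrulline, was listed at 0 in 6 libraries, among them all 3 IR libraries. It was at 0.0396 TPM in Sham 1, 0.0252 in IR+NMN 1 and 0.0369 in IR+NMN 2. Padi2, the member of the family with the highest level here and one known from oligodendrocytes, had a mean of 23.3 ± 5.90 TPM in Sham, against 12.1 ± 4.95 for IR and 11.6 ± 6.43 for IR+NMN (SD, n = 3). It passed in no comparison. Padi1 was listed at 0 in every library and Padi3 did not exceed 1.06 TPM.

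Between IR and Sham, limma called 0 of the 8 tested genes. At an unadjusted p under 0.05 were 0 of the 8, beside 2884 of all 10180 genes. Over all genes 6.39% were called, 1.14% higher and 5.26% lower in IR. The median log2 difference of the 8 was -0.085, beside -0.21 over all genes. Ncf4 alone had groups that did not overlap, with IR higher, as did 7.58% of all genes, and no member lay wholly below Sham, as did 26.7% of all genes. The interval of Itgam ran from -0.44 to 1.08 and that of Cybb from -1.06 to 0.10, so both held 0. Without both IR 1 and IR+NMN 2 again 0 of the 8 were called. Over all genes 2513 were then called, beside 651 with all libraries. At an unadjusted p under 0.05 were 2 of the 8, beside 4489 of the 10096 genes tested there. These 2 were Ncf4 with IR higher (0.44, limma adjusted p = 0.0834) and Itgb2 with IR lower (-0.36, limma adjusted p = 0.102).

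**Figure D3:**
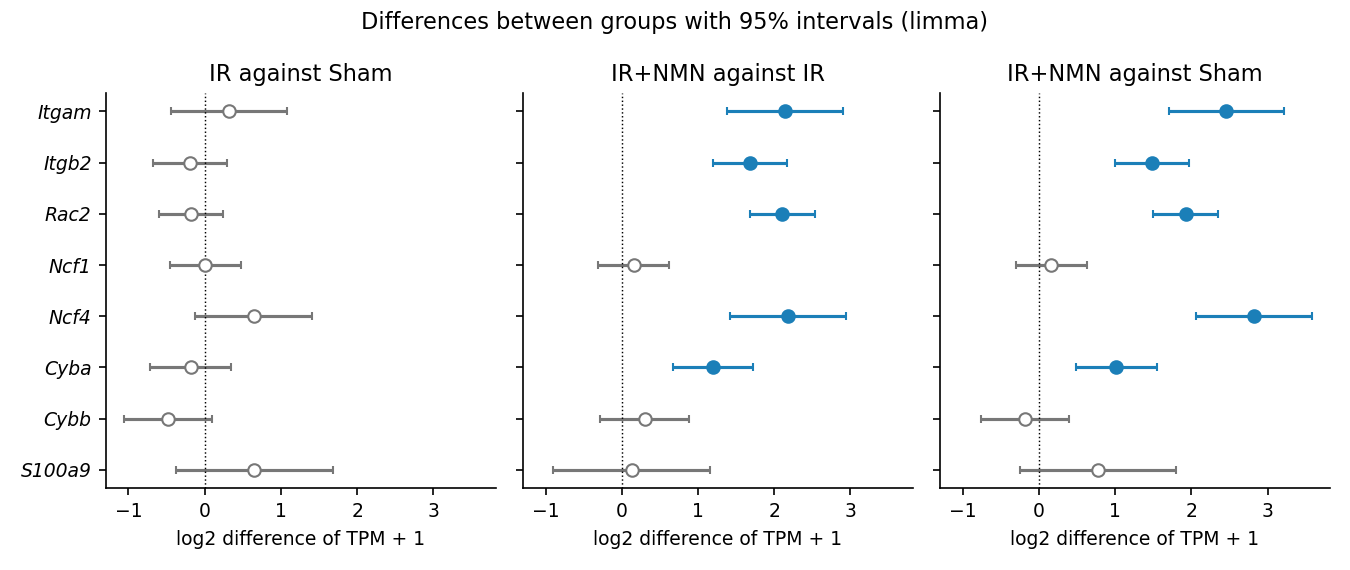
Log2 differences of TPM + 1 (horizontal axes) with 95% intervals for the 8 tested genes in the 3 comparisons. Filled points passed an adjusted p of 0.05 and open points did not. Itgam, Itgb2, Rac2, Ncf4 and Cyba pass in both comparisons with IR+NMN, which share the IR+NMN libraries, and no gene passes between IR and Sham.

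Between IR+NMN and IR, 5 of the 8 tested genes rose and 0 fell, where 2.36% of all genes were called, 2.30% higher and 0.0589% lower. Groups did not overlap for the same 5, beside 13.7% of all genes with IR+NMN wholly above IR and 3.22% wholly below. The median log2 difference of the 8 was 1.44, beside 0.041 over all genes. As the members were chosen with earlier results of these data known, these comparisons with all genes are a description. The call of all 5 was lost when IR 2, IR 3, IR+NMN 1 or IR+NMN 3 was left out, settings in which limma called 0 of all genes tested. The limma adjusted p-values of the 5 then ran from 0.0543 to 0.184 and their differences from 1.01 to 2.16. All 5 kept an unadjusted p under 0.05, a level that 900 to 1303 of all genes reached in these settings. The 5 also lost their calls in a fit to the IR and IR+NMN libraries alone (limma adjusted p from 0.0547 to 0.0761), where 2 of all genes were called. With quantile scaling only Rac2 kept its call, where 7 of all genes were called. Cyba was the least stable and also lost its call without Sham 1, Sham 2 or IR 1. Without both IR 1 and IR+NMN 2 all 5 were called, with 1.35 for Cyba and 2.04 to 2.79 for the other 4. Over all genes 504 were then called, beside 240 with all libraries. IR+NMN 2 was the lowest IR+NMN library for all 5, and IR 1 the highest IR library for Itgam, Itgb2, Rac2 and Ncf4. Leaving both out thus widens the gaps of those 4 by construction and lends the calls no support.

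Against Sham, the same 5 genes were higher in IR+NMN, where 10.3% of all genes were called, 4.21% higher and 6.13% lower. Those shares, 429 and 624 genes, turned to 717 higher and 692 lower with quantile scaling and to 703 and 569 with median-of-ratios scaling. The IR+NMN libraries lay wholly above Sham for these 5, as they did for 1323 of all 10180 genes, with 2081 wholly below. Ncf4 differed by 2.82 (SE 0.34, limma adjusted p = 0.00295), Itgam by 2.46 (SE 0.34, 0.00448) and Rac2 by 1.93 (SE 0.19, 0.00134). Itgb2 differed by 1.48 (SE 0.21, limma adjusted p = 0.00578) and Cyba by 1.01 (SE 0.23, 0.0300). The calls of Itgam, Itgb2, Rac2 and Ncf4 held without any single library (adjusted p up to 0.0342), whereas that of Cyba (adjusted p up to 0.124) was lost without any one of Sham 1, Sham 2, IR 2, IR 3, IR+NMN 1 and IR+NMN 3. Without both IR 1 and IR+NMN 2 all 5 were called, from 1.22 for Cyba to 3.23 for Ncf4. Over all genes 2956 were then called, beside 1053 with all libraries. IR+NMN 2 was the lowest IR+NMN library for all 5, so this lends the calls no support. The comparison shares its IR+NMN libraries with the one above.

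In order of mean level, Cyba led in every group. In Sham it was followed by Itgb2, Rac2, Ncf1, S100a9 and Itgam, with means from 4.72 down to 3.09 TPM, each of which overlapped the next. Cybb and Ncf4, which overlapped each other but not Itgam, and Padi4 came last. In IR the levels from S100a9 through Itgam, Itgb2 and Ncf1 to Rac2 had means of 4.78 to 3.797 TPM, and neighbours overlapped. Ncf4, whose libraries lay below those of Rac2, Cybb and Padi4 followed. In IR+NMN Cyba was followed by Itgam, Rac2, Itgb2 and Ncf4, with means of 21.6 down to 12.3 TPM, each of which overlapped the next. S100a9, at 5.47 TPM, overlapped both Ncf4 and Ncf1, at 4.64 TPM, while Ncf1 and Ncf4 did not overlap, and Cybb and Padi4 were last.

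Among other oxidase subunits and relatives, 9 of 12 listed genes were in the table and 4 were tested. Of these 0 were called by limma between IR+NMN and IR, with a median of 0.37. At an unadjusted p under 0.05 were 2 of the 4, beside 1359 of all 10180 genes. Rac1 differed by 0.32 between IR+NMN and IR (SE 0.17, limma adjusted p = 0.510). Rap1a, a small GTPase found with the membrane core, was lower in IR than in Sham (-1.47, SE 0.14, limma adjusted p = 0.00150), a direction that reversed when only its highest row was used. Nox1, Nox3, Nox4, Duox1 and Duox2, catalytic relatives of Cybb, stayed under 1 TPM in every library.

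Among leukocyte integrins, their activators and their ligands, 8 of 15 listed genes were tested. Against IR 3 rose in IR+NMN and 0 fell, with a median of 0.71. They were Itgal, the alpha chain of LFA-1, which also pairs with Itgb2 (1.53, SE 0.20), the integrin activator Fermt3 (0.99, SE 0.17) and the integrin linker talin, Tln1 (0.92, SE 0.19), with limma adjusted p-values of 0.0181, 0.0252 and 0.0431. Tln1 had fallen in IR against Sham (-0.85, SE 0.19, limma adjusted p = 0.0381). Itgal was at 3.07, 2.48 and 3.97 TPM in IR+NMN and under 1 TPM in all other libraries, so it was tested only because of the group in which it was high. Itgad, a further partner of Itgb2, was under the testing level and at 1.92, 0.247 and 2.47 TPM in IR+NMN 1 to 3, against at most 0.0502 TPM elsewhere. Itgam made up 77.9% to 92.5% of the TPM of Itgam, Itgal and Itgad in every library. Icam1, the vessel wall ligand of these integrins, had 1.36 to 2.29 TPM in the Sham libraries, 0.971 to 2.40 TPM in those of IR and 2.91 to 4.45 TPM in those of IR+NMN, and did not pass against IR (0.93, SE 0.24, limma adjusted p = 0.0902). Against Sham 2 of the 8 rose in IR+NMN, Itgal and Fermt3, and 2 fell. Selplg, a selectin ligand that resting microglia also express, fell (-1.56, SE 0.29, limma adjusted p = 0.0140), as did the adhesion molecule Vcam1 (-0.85, SE 0.21, limma adjusted p = 0.0408).

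Kinases, adaptors and GTPase regulators that signal to integrins and oxidase were tested in 14 of 15. Against IR 5 rose in IR+NMN and 0 fell, with a median of 0.77. Arhgdib, the blood cell inhibitor that holds Rac proteins in the cytosol, was at 15.9 to 17.2 TPM in IR and 28.1 to 37.5 TPM in IR+NMN (0.95, SE 0.13, limma adjusted p = 0.0181). The Tec family kinase Btk also rose (0.85, SE 0.16, limma adjusted p = 0.0304). Against Sham 8 of the 14 rose, among them Tyrobp, the adaptor of many myeloid receptors (1.65, SE 0.25, limma adjusted p = 0.00612).

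Of the myeloid transcription factors 4 of 8 were tested, and 2 rose in IR+NMN against IR. Spi1, which encodes PU.1, was at 6.81 to 7.21 TPM in Sham, at 9.94, 6.28 and 6.30 TPM in IR and at 18.7, 12.9 and 17.1 TPM in IR+NMN (1.03, SE 0.19, limma adjusted p = 0.0297). Irf8, a factor needed by microglia and monocytes, was at 10.7 to 12.5 TPM in the Sham libraries, 9.27 to 13.4 in those of IR and 28.1 to 38.8 in those of IR+NMN (1.56, SE 0.17, limma adjusted p = 0.0124). For both, every IR+NMN library lay above all others.

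**Figure D4:**
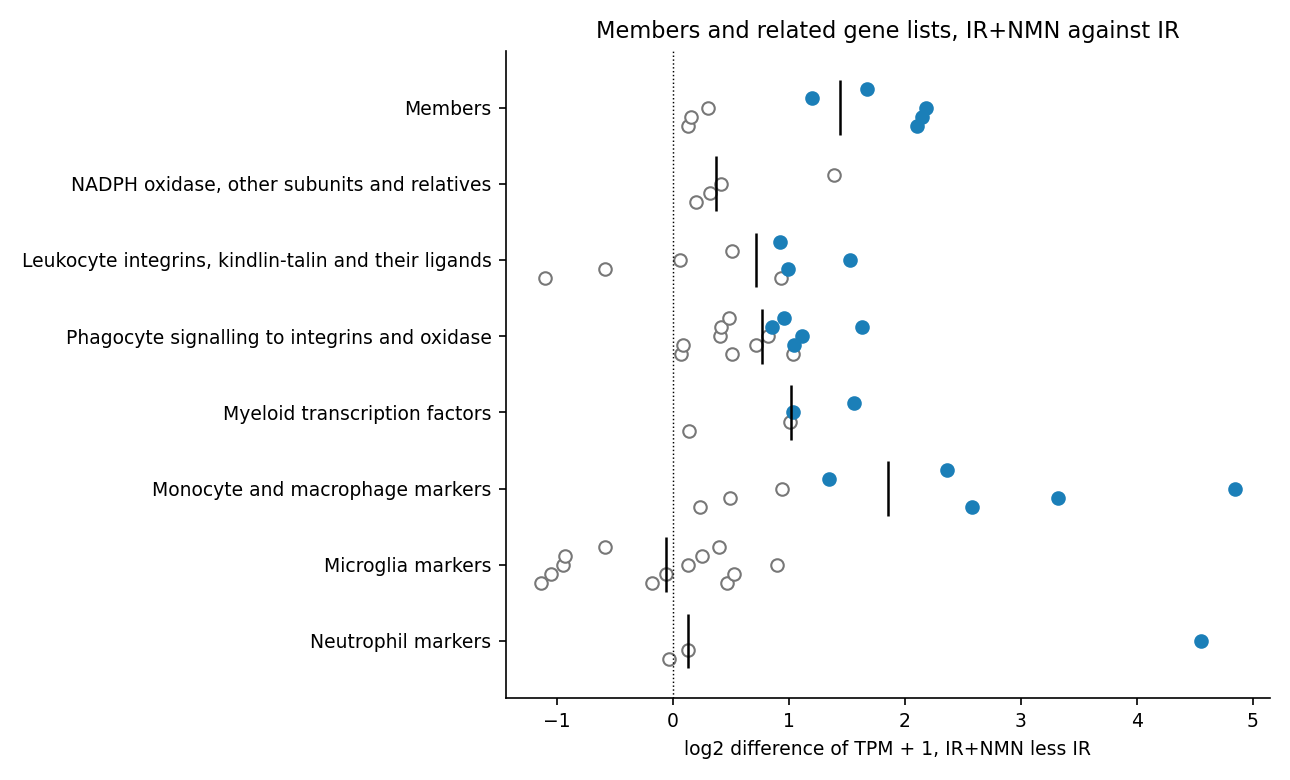
Log2 difference of TPM + 1 between IR+NMN and IR (horizontal axis) for each tested gene, by list. Filled points passed an adjusted p of 0.05, open points did not, and the vertical bar is the median of a list. The 8 tested members have a median of 1.44, and the only filled point among neutrophil markers is Lcn2, at 4.55.

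Irf8 was also the gene whose pattern over the 9 libraries was most like that of Itgb2, with a root mean square difference of 0.11 in log2(TPM + 1) after each gene was centred on its mean, where the SD of Itgb2 was 0.83. Itgal (0.15), Mcm2 (0.15), a subunit of the replicative helicase, Tpm4 (0.18), a tropomyosin, and Niban2 (0.18) followed. Since Itgb2 was itself higher in IR+NMN, likeness to it fixes the direction of these 5 and adds no support. Irf8 and Itgal were tested above as genes of their lists, not because of this likeness. For Cybb, whose own SD was 0.36, the nearest were Nectin2 (0.15), Tec (0.15), Gpsm1 (0.15), Hook2 (0.16) and Gcnt1 (0.16). The likeness is a description over 9 libraries, and genes with little variation lie near each other by construction.

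Markers of the cells that could carry these genes moved in different ways. Of 13 tested microglia markers 0 were called by limma between IR+NMN and IR and 8 had an unadjusted p under 0.05, with a median of -0.060. Their summed level was 434 to 483 TPM in the Sham libraries, 534 to 571 in those of IR and 513 to 657 in those of IR+NMN. The parts of this sum moved in opposite directions. The complement genes C1qa, C1qb and C1qc, set apart after their values were seen, made up 124 to 155 TPM in Sham libraries, 256 to 305 TPM for IR and 291 to 369 TPM for IR+NMN. The other 11 markers summed to 303 to 333 TPM in Sham libraries, above the 266 to 278 TPM of IR and the 223 to 288 TPM of IR+NMN. Csf1r, the growth factor receptor of microglia and macrophages, was at 65.3 to 90.5 TPM over all 9 libraries and passed in no comparison. The C1q genes were the 3 microglia markers that rose in IR against Sham, C1qb by 1.07 (SE 0.14, limma adjusted p = 0.00767), and 0 fell. In IR+NMN against Sham the same 3 rose, C1qb by 1.53 (SE 0.14, limma adjusted p = 0.00109), and 5 fell. Those 5 were P2ry12, a receptor of resting microglia (-1.90, SE 0.26, limma adjusted p = 0.00490), P2ry13, Trem2, Gpr34 and Tmem119. Set against Csf1r, a denominator chosen after the data were seen, Itgam stood at 0.0307 to 0.110 of its level in the Sham and IR libraries and at 0.205 to 0.358 of it in IR+NMN. The same ratio for Rac2 was 0.0475 to 0.0622 and 0.172 to 0.342.

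Of 8 tested monocyte and macrophage markers 5 rose in IR+NMN against IR. They were Lgals3 (4.85, SE 0.58), the scavenger receptor Msr1 (3.32, SE 0.48), the Fc receptors Fcgr2b (2.36, SE 0.41) and Fcgr1a, and the endotoxin co-receptor Cd14, with limma adjusted p-values up to 0.0390. Msr1 was tested only because of the IR+NMN libraries, where it was at 18.6, 3.57 and 17.3 TPM. The list summed to 63.1 to 118 TPM in Sham, 46.6 to 81.5 in IR and 367, 94.7 and 248 in IR+NMN 1 to 3. By this sum IR+NMN 2 was within the range of Sham. Lyz2 alone was at 46.2 to 95.2 TPM in Sham and 36.7 TPM in IR+NMN 2. The mean of log2(TPM + 1) over the list was 3.10 in IR+NMN 2, above the 2.06 to 2.46 of Sham. Every IR+NMN library lay above Sham for the 5 genes, and these groups overlapped for Lyz2, Cd68 and Adgre1. Several of these genes are also made by activated microglia. Ccr2, the receptor of blood monocytes, and the macrophage genes Mrc1, Cd163 and Ms4a7 were not analysed here.

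Neutrophil markers were the least covered, with 7 of 18 in the table and 3 tested. Lcn2, which reactive astrocytes also make, was the 1 gene that rose against IR (4.55, SE 0.69, limma adjusted p = 0.0214), from at most 2.66 TPM in IR to 86.6, 16.9 and 139 TPM in IR+NMN 1 to 3. The other 6 summed to 3.12 to 8.55 TPM in the Sham libraries, 5.11 to 10.0 in those of IR and 6.35 to 10.8 in those of IR+NMN, so the groups overlapped. Mmp9, a granule protease also made by other cells, did not pass (-0.037, SE 0.38, limma adjusted p = 0.994). The granule genes Camp, Mmp8 and Bpi did not exceed 0.601, 0.137 and 0.0382 TPM in any library, and the chemokine receptor Cxcr2 did not exceed 1.71 TPM. Mpo, Elane, Prtn3, Ctsg, Ltf, S100a8, Csf3r and Fpr1 were not analysed here.

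**Figure D5:**
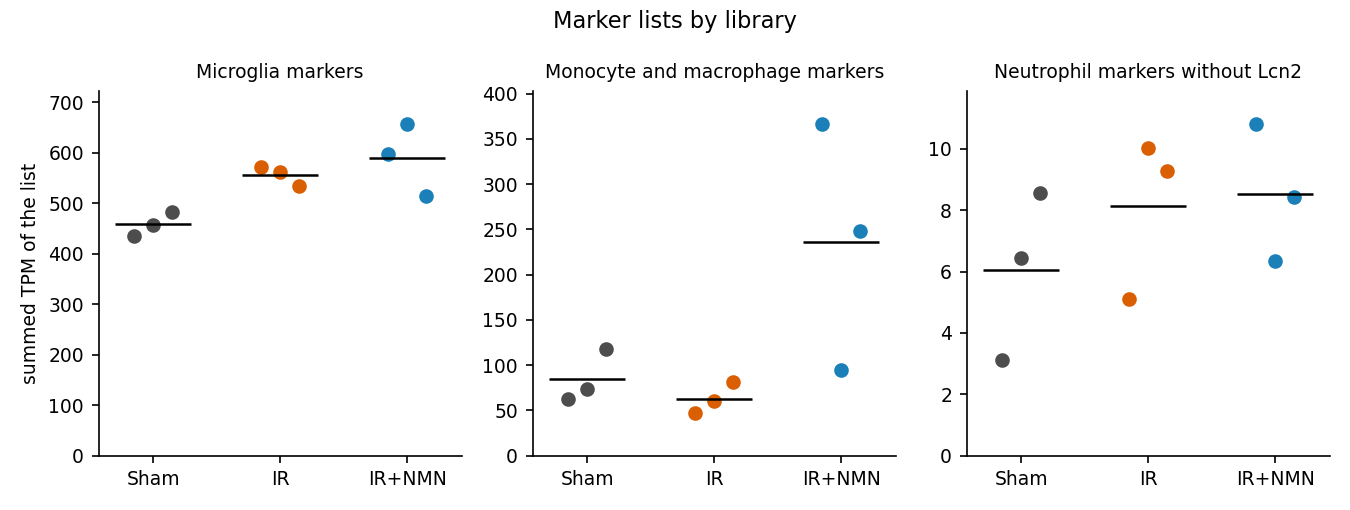
Summed TPM (vertical axes, linear from 0) of microglia markers, monocyte and macrophage markers, and neutrophil markers without Lcn2. A point is a library and a line the group mean. Leaving out Lcn2 was not planned, and with it the IR+NMN neutrophil sums, 23.3 to 148 TPM, lie above all others. In the monocyte and macrophage sums IR+NMN 2, at 94.7 TPM, lies within the Sham range. The other IR+NMN libraries, at 248 and 367 TPM, lie above it. Lyz2 makes up 46.2 to 95.2 TPM of the Sham sums. The list's mean log2(TPM + 1) in IR+NMN 2, 3.10, lies above the 2.06 to 2.46 of Sham.

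Hemoglobin genes, a measure of blood in the tissue, summed to 4076 to 9332 TPM in the Sham libraries, 731 to 901 in those of IR and 824 to 1010 in those of IR+NMN. Sham lay above both other groups, which overlapped. Of 3 tested lymphocyte markers 0 were called by limma between IR+NMN and IR. At an unadjusted p under 0.05 were 0 of the 3, beside 1359 of all 10180 genes. Among the brain tissue markers Gfap, the intermediate filament of astrocytes, was at 801, 498 and 394 TPM in Sham 1 to 3 and at 2645, 1336 and 666 TPM in IR 1 to 3. In IR+NMN 1 to 3 it was at 4121, 4634 and 4315 TPM, above all other libraries, as were the 5 genes. It rose against Sham (3.01, SE 0.45, limma adjusted p = 0.00605) and did not pass against IR (1.71, SE 0.45, limma adjusted p = 0.0957). Gad1, a marker of inhibitory neurons, fell against Sham (-0.70, SE 0.17, limma adjusted p = 0.0337), and the other 8 brain tissue markers passed in no comparison. The part of any cell type, or of blood, in the differences was not tested.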

How the data were processed

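The deposited table gave TPM per transcript row for 9 rat brain libraries, the authors' own normalized values, each library summing to 1000000. Per the labels' protocols, total RNA was amplified by Smart-Seq2, and the minimum RIN, a score of RNA integrity, was 5.8. Per the submitters' processing notes, STAR and Cufflinks were used. Those notes list hg38, a human build, for these rat samples, without versions or an annotation. Of 131003 rows 27683 carried a symbol. No 2 libraries were identical.

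Rows of a symbol were summed, so transcripts are not separated. Genes at 1 TPM or more in at least 3 libraries entered limma 3.58.1 (R 4.3.3, trend and robust moderation, 1 mean per group, all 9 libraries, 6 residual degrees of freedom) on log2(TPM + 1), a scale that understates changes of low genes. P-values were two-sided and adjusted by the Benjamini-Hochberg method over 10180 genes per comparison, with a threshold of 0.05. A permutation test of 3 against 3 libraries cannot go below 0.1 and was not used. Named genes were the members, up to 3 genes per list and comparison with the smallest p past the threshold or otherwise the highest levels, and the 5 nearest patterns of Itgb2 and Cybb. Others are marked as chosen after their values were seen. Fcgr1a, Cd14, Icam1, Itgad, Mmp9, Lyz2, Cd68, Adgre1, Ptprc and the genes given only by a maximum were also outside the rule. Members and lists were chosen with earlier results of these data known. Same-numbered libraries were correlated at -0.57 to 0.49 in their deviations from group means, with 3 of 9 pairs over 0.1. With 3 libraries per group this can neither show nor exclude a pairing or a batch by number. Results of some genes that the rule names are not reported here.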

Additional observations from a re-analysis of the deposited data

How the results depend on the processing

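Over 19 other settings the number of genes of the 9 that were called stayed at 0 for IR against Sham and at 4 or 5 for IR+NMN against Sham. For IR+NMN against IR it was 1 with quantile scaling, 0 in the fit to the 2 groups compared and 2 with the replicate number as a block. In these settings 7, 2 and 33 of all genes were called, beside 240 in the main fit. In each, 5 members kept an unadjusted p under 0.05, a level that 1467, 1150 and 1136 of all genes reached. When single libraries were left out it ran from 0 to 5, beside 0 to 459 of all genes. With the block, Itgb2 (adjusted p = 0.0483) and Rac2 (0.0430) remained called. The number of members called was 4 or 5 with a pseudocount of 0.1, without a filter, with a filter at a mean of 5 TPM, with the highest row per symbol, with median-of-ratios scaling, and without trend and robust moderation. Over all genes 72 to 281 were called there. In each of these settings all tested ones of the 5 kept a positive difference, and where the count fell the cause was not tested. No call of a member changed direction. Whether the replicate numbers of the block mark a pairing or a batch is not known.

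The number of all genes called ran from 56 to 2513 for IR against Sham, from 0 to 504 for IR+NMN against IR and from 262 to 2956 for IR+NMN against Sham, beside 651, 240 and 1053. With the replicate block it was 100, 33 and 499. With quantile scaling IR against Sham gave 290 higher and 292 lower genes, beside 116 and 535. Rap1a reversed with the highest row per symbol, to 0.18 for IR against Sham and 0.60 for IR+NMN against Sham. TPM keeps no depth, which limits what can be said of Cybb and Padi4.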
